A study of Mus musculus with 23 samples.

Results

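The 10 genes described here encode enzymes that remove hydrogen peroxide, lipid peroxides or superoxide: the peroxiredoxins Prdx1 to Prdx6, the superoxide dismutases Sod1 and Sod2, catalase (Cat) and the glutathione peroxidase Gpx4. They were chosen by symbol and made up 10 of the 56196 genes counted. All 10 had counts in both tables and passed the filter on low counts. The libraries came from mouse oocytes and embryos labelled wild-type (WT) or heterozygous for Eif4enif1 (Eif4enif1+/-, het). Eif4enif1 encodes 4E-T, a partner of the cap-binding protein eIF4E found in cytoplasmic granules of stored mRNA. Untreated germinal vesicle (GV) oocytes, which are fully grown and held in meiotic prophase, gave 2 WT and 2 het samples. From each sample a transcriptome library (total mRNA) and a translatome library (ribosome-bound mRNA captured with RiboLace) were made. Embryos gave 3 libraries in each of 5 groups: untreated 1-cell embryos of both genotypes, 2-cell embryos of both genotypes kept in vitro for 24 h, and het embryos still at 1 cell after 24 h in vitro (arrested). Stage and culture therefore cannot be told apart between 2-cell and 1-cell embryos. Arrest and culture cannot be told apart between arrested and untreated 1-cell embryos. The labels do not say whether an embryo's genotype is its own or its mother's, and strain, age, mating and the number of oocytes or embryos in a library were not stated there. The labels name no separate animals for the libraries of a group. A p-value here weighs a difference against the spread among the libraries at hand, and that spread may be technical.

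Superoxide dismutases turn superoxide into hydrogen peroxide, Sod1 mainly in the cytosol and Sod2 in the mitochondrial matrix. Peroxiredoxins reduce peroxides with a reactive cysteine, which most of them recharge through thioredoxin, and catalase breaks hydrogen peroxide down in peroxisomes. Gpx4 is a selenoprotein that reduces lipid peroxides in membranes with glutathione. Fully grown oocytes and 1-cell embryos live on mRNA stored during oocyte growth, and in the mouse the main wave of transcription from the embryo's own genome comes at the 2-cell stage.

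In mm10 coordinates of the GENCODE annotation, the plus strand carries Prdx1 at chr4:116685544-116700822, Prdx2 at chr8:84969587-84974834, Sod1 at chr16:90220754-90226329, Sod2 at chr17:13006846-13040063 and Gpx4 at chr10:80047166-80056439. The minus strand carries Prdx3 at chr19:60864051-60874556, Prdx4 at chrX:155323918-155340754, Prdx5 at chr19:6906697-6910106, Prdx6 at chr1:161240112-161251219 and Cat at chr2:103453849-103485160.

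Sequences are shown for the 2 genes with the largest stage differences, Prdx4 and Gpx4, and for Prdx1, the most abundant of the 10 in oocytes and 1-cell embryos. The RefSeq promoter table (GRCm38.p6) held 9 of the 10 genes, in 12 windows of the 250 bases before an annotated start. Each stretch below runs 5′ to 3′ on the gene's strand and ends where GENCODE exon annotation begins. Gpx4 had more than 1 window, and the stretch shown is from the first window with 2 GC box matches. The Gpx4 window at chr10:80046916-80047165, directly before the annotated gene, held 0 matches. The Gpx4 and Prdx4 stretches lie inside the gene spans given above. Capitals mark matches on either strand to GGGCGG (GC box) or to TGACNNNGC (core of the antioxidant response element).
Prdx4, chrX:155338475-155338710, minus strand: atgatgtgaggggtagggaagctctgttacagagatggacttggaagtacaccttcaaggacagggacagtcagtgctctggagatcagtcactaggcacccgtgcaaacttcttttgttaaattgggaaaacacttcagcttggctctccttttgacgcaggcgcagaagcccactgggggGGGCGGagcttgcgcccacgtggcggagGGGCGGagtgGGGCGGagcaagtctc
Gpx4, chr10:80053315-80053487, plus strand: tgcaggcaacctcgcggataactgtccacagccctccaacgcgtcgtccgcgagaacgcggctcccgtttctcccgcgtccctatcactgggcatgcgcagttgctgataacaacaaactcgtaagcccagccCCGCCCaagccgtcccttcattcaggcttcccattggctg
Prdx1, chr4:116685349-116685543, plus strand: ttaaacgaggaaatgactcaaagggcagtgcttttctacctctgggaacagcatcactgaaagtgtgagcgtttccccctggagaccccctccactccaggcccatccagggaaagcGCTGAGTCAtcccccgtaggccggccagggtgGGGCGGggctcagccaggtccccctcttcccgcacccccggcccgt
GGGCGG occurred in 10 of the 12 windows and in 32.7% of all 32851 promoter windows of that length. Windows of one gene are not independent: the Gpx4 windows starting at 80053315 and 80053409 overlap and hold the same GC boxes. TGACNNNGC occurred in 2 of the 12, those of Prdx1 and Sod1, against 10.2% of all windows, and TATAAA in 3 of the 12 against 12.4%. The motifs were chosen after the values were seen, overlapping matches were counted apart, and a match is a run of letters, not a shown binding site.

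The counts of Gpx4 carry an uncertainty that its coding sequence makes visible. Gpx4 (chromosome 10, mm10) reads a TGA codon as selenocysteine, in capitals below at codon 73 of transcript Gpx4-202 within coding bases 172 to 264. The annotated processed pseudogene Gpx4-ps2 lies on the same chromosome at chr10:45875291-45876086 and is 99.7% identical over 762 aligned bases. Its stretch is printed with the single differing base in capitals.
Gpx4: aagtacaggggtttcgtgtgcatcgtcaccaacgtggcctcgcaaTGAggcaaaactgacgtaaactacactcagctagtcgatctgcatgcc
Gpx4-ps2: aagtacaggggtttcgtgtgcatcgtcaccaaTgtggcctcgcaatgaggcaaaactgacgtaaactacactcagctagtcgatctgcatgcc
Gpx4-ps2 held counts equal to 30.3% of those of Gpx4 in oocytes and 34.3% in embryos. Of its 50-base words 83.6% are also in the annotated transcripts of Gpx4. Reads of the one could have been counted at the other. Counts at Prdx2-ps1 were 1.68% of those of Prdx2 in both tables, at Prdx6-ps2 3.11% and 0.328% of those of Prdx6, and at Prdx1-ps 0. Prdx2 exons also overlap exons of Rnaseh2a and Junb, and Prdx5 exons overlap Trmt112, and whether the counting used strand is not known.

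Libraries held 3.62 to 50.49 M counts in oocytes and 5.6 to 40.38 M in embryos. Eif4enif1 itself checked the labels: its level was 87.3 and 96.1 CPM in the het against 217 and 222 CPM in the WT transcriptome, and 150 and 97.1 CPM against 312 and 270 CPM in the translatome. CPM stands for a library's counts scaled to its TMM-adjusted total. In 1-cell embryos Eif4enif1 stood at 69.2 to 72.1 CPM in het and 134 to 178 CPM in WT libraries, and in 2-cell embryos at 38.2 to 54.9 and 55.3 to 76.3 CPM. At neither stage was the difference called by edgeR. Arrested het libraries 1 to 3 had 110, 28.5 and 62.7 CPM. These lay below the WT 1-cell libraries (log2 -1.19) but overlapped the WT 2-cell libraries (log2 -0.04), so the check does not settle the arrested label. All 20 oocyte markers had counts in the oocyte libraries. Het 1-cell libraries 1 and 3 stood apart: their 100 most abundant genes took 6.34% and 5.53% of counts, against 32.06% to 38.05% in the other 1-cell libraries, and their TMM factors were 2.02 and 2.15. The arrested libraries differed among themselves. Over 8822 genes, arrested library 1 correlated at 0.875 with the mean WT 1-cell profile and at 0.211 with the WT 2-cell mean, library 2 at 0.409 and 0.692, and library 3 at 0.619 and 0.55. Oocyte and embryo tables were scaled separately, so levels from both are set side by side with no test.

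Prdx1 and Prdx2, the cytosolic peroxiredoxins, made up most of the transcript pool of these enzymes in oocytes. Per kb of exon, the WT transcriptome ranked Prdx1 first at 401 CPM per kb, then Prdx2 at 330 and Sod1 at 133. Gpx4 followed at 76.7 CPM per kb and Prdx5, a mitochondrial, peroxisomal and cytosolic peroxiredoxin, at 68.2. Prdx3 and Sod2, both of the mitochondrial matrix, stood at 22.2 and 10.9 CPM per kb. Length here is all annotated exon sequence of a gene, 1478 bases for Prdx3 and 10008 for Sod2. An expressed mRNA can be shorter, so order and shares depend on that choice. Without the division by length Sod2 (109 CPM) stood above Prdx3 (32.7 CPM). Prdx4, the secretory-pathway peroxiredoxin, had 4.03, Prdx6, which reduces phospholipid peroxides, 3.76 and Cat 0.467. Library values of Gpx4 and Prdx5 were 83.1 and 70.4 against 72 and 64.3, so these neighbours did not separate, nor did Prdx4 and Prdx6. Prdx1 and Prdx2 together held 68.1% and 71.2% of the summed level in the WT transcriptome, and 86.2% to 87.4% in WT 1-cell embryos. In WT 2-cell embryos they held 35.2% to 46.8%, and Prdx4 alone held 17.1% to 24.4%, from 0 in the 3 WT 1-cell libraries. There, Prdx2 (168 CPM per kb), Gpx4 (166), Prdx4 (157) and Prdx1 (135) lay close together, and their library values overlapped from each gene to the next.

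**Figure D1:**
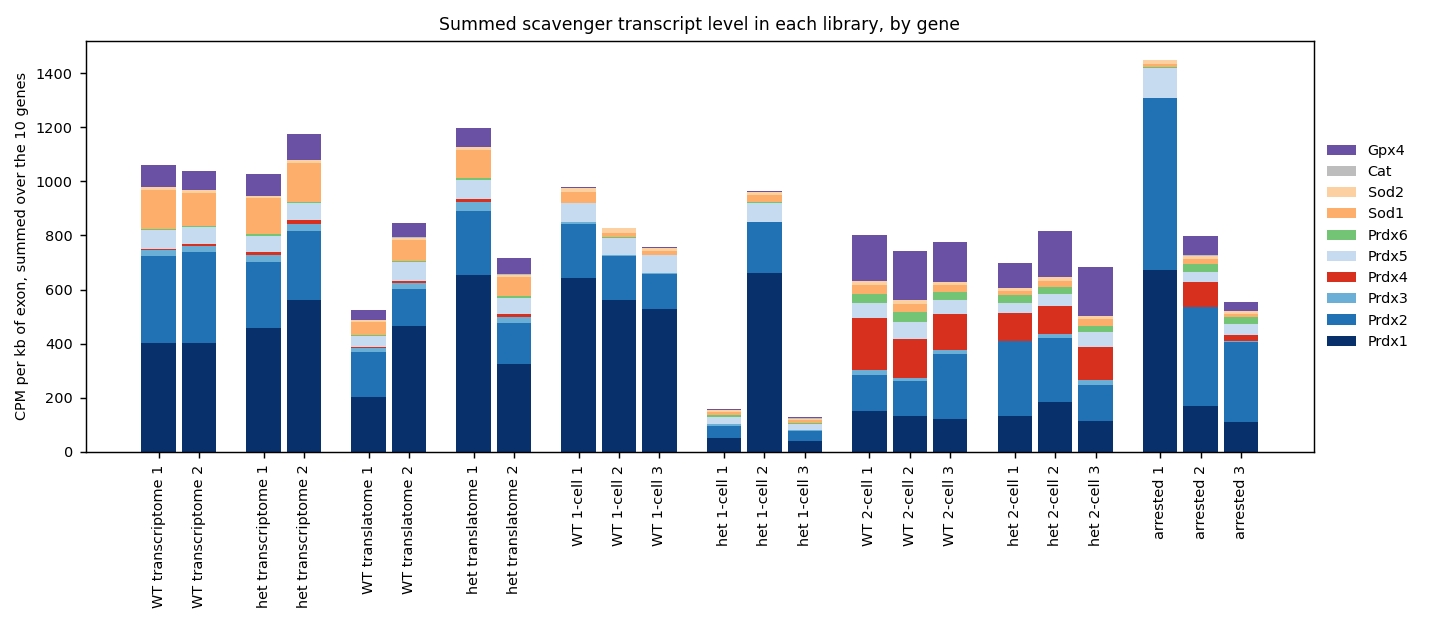
Level of the 10 genes in each of the 23 libraries, in CPM per kb of exon, stacked by gene. WT and het name Eif4enif1 genotype labels, and arrested means het embryos still at 1 cell. Prdx1 and Prdx2 fill most of the oocyte and 1-cell bars. Prdx4 and Gpx4 take up more of the 2-cell than of the 1-cell bars, and Gpx4 is also present in the oocyte bars. Het 1-cell libraries 1 and 3 have the lowest sums (157 and 128).

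The translatome was set against the transcriptome to ask whether ribosome-bound mRNA holds the same share of each message as total mRNA. In WT oocytes Prdx2 and Sod1 were lower among ribosome-bound mRNA, by 2.17-fold and 2.09-fold. Prdx2 stood at 983 and 1031 CPM in the transcriptome and at 508 and 419 CPM in the translatome. The groups did not overlap, and the log2 difference was -1.12 (SE 0.28, edgeR adjusted p = 0.02). Sod1 read 569 and 484 CPM in total and 190 and 315 CPM in ribosome-bound mRNA, again without overlap (log2 difference -1.06, SE 0.30, edgeR adjusted p = 0.0332). These 2 of 10 lower calls stood against a background of 5.64% of 22409 genes called lower and 8.95% called higher. Groups did not overlap for 4 genes lower (Prdx2, Sod1, Sod2 and Gpx4) and 1 higher (Cat), with a background of 31.6% and 27.7%. Gpx4 had 143 and 121 CPM against 67.3 and 92.8 CPM (log2 difference -0.73, SE 0.26, adjusted p = 0.0717), which missed the threshold. Prdx1 spread widely in the WT translatome, with 612 and 1415 CPM around its transcriptome values of 1220 and 1222 CPM. Leaving out 1 oocyte library leaves a group of 1, which is then assumed to vary like the other groups. Each of the calls was lost in 3 of 4 such fits: adjusted p reached 0.0807 for Prdx2 and 0.182 for Sod1, with log2 differences of -1.27 to -0.98 and -1.47 to -0.75. Prdx2 kept its call without WT translatome library 1, and Sod1 without WT translatome library 2. Among the WT libraries alone Sod1 missed the threshold as well (adjusted p = 0.0783).

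In het oocytes none of the 10 genes was called between the fractions, by edgeR or by DESeq2, where 8.09% of genes were called, 1.91% lower and 6.19% higher. Groups did not overlap for 3 genes lower (Prdx2, Sod1 and Gpx4) and 1 higher (Prdx6), with a background of 26.4% and 31.6%. Only Sod1 had an unadjusted p under 0.05. Prdx2 had 742 and 783 CPM in the het transcriptome and 730 and 459 CPM in the translatome, which did not overlap. Sod1 had 523 and 581 CPM in total and 418 and 278 CPM in ribosome-bound mRNA (log2 difference -0.67, SE 0.30, adjusted p = 0.179). Whether the fractions differed more in one genotype was tested as an interaction. Prdx2 gave 0.76 on the log2 scale (SE 0.39, edgeR adjusted p = 0.584), and 0 of the 10 genes were called by edgeR or DESeq2 or had an unadjusted p under 0.05. Background was 0.0134% of genes, 0.00446% higher and 0.00892% lower.

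The genotype comparison asks how het oocytes differ from WT oocytes. In the transcriptome 1 of the 10 genes was called: Prdx4, higher in het oocytes, where 2.55% of all genes were called and 1.41% were called higher. Its level was 26.3 and 30.4 CPM in the het libraries and 8.55 and 8.43 CPM in the WT libraries, a 3.35-fold difference (log2 1.74, SE 0.40, edgeR adjusted p = 0.039). The call held in all 8 other settings (adjusted p 3.22e-05 to 0.0391), but in none of the 4 fits that left out 1 library. Without het library 1 the adjusted p was 0.0858, without het library 2 0.296, without WT library 1 0.0746 and without WT library 2 0.143, with log2 differences of 1.69 to 1.85. Prdx1 read 1391 and 1705 CPM in het oocytes and Prdx2 742 and 783 CPM against 983 and 1031 CPM in WT. Both sets of groups were apart, in opposite directions, and neither gene was called (adjusted p = 0.685 and 0.462). Groups did not overlap for 5 genes higher and 3 lower in het oocytes, against a background of 21.8% and 28.5% of genes, as groups of 2 allow.

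In the translatome all 10 genes had higher fitted levels in het oocytes (8 and 9 of 10 without WT library 1 and without het library 1), with a median log2 difference of 0.50, where the median over all genes was 0.04. None of these differences was called by edgeR. Over all genes 4.61% were called, 2.61% higher and 2.01% lower. Prdx6 came nearest: the het libraries had 31.3 and 34.5 CPM and the WT libraries 15.9 and 17.7 CPM (log2 difference 0.97, SE 0.27, adjusted p = 0.0583). For Prdx4 the het values were 22.2 and 27.5 CPM and the WT values 5.5 and 15.9 CPM (log2 difference 1.24, SE 0.39, adjusted p = 0.09). These 2 genes had an unadjusted p under 0.05, and DESeq2 called both (adjusted p = 0.0209 and 0.0396). Without WT translatome library 2, the log2 difference of Prdx4 was 2.23 and its adjusted p 0.00744. Leaving out any other library gave log2 differences of 0.64 to 1.43 and no call. Gpx4, with 121 and 105 CPM against 67.3 and 92.8 CPM, and Cat, with 2.46 and 5.13 CPM against 1.83 and 2.17 CPM, had groups that did not overlap, which with Prdx4 and Prdx6 made 4 genes higher and 0 lower. Over all genes 28.4% were higher and 25.0% lower in that way. The remaining 6 genes had overlapping groups and log2 differences between 0.10 (Sod2) and 0.55 (Prdx1). The summed level of the 10 genes overlapped too, at 1198 and 718 CPM per kb in the het and 525 and 847 in the WT translatome.

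**Figure D2:**
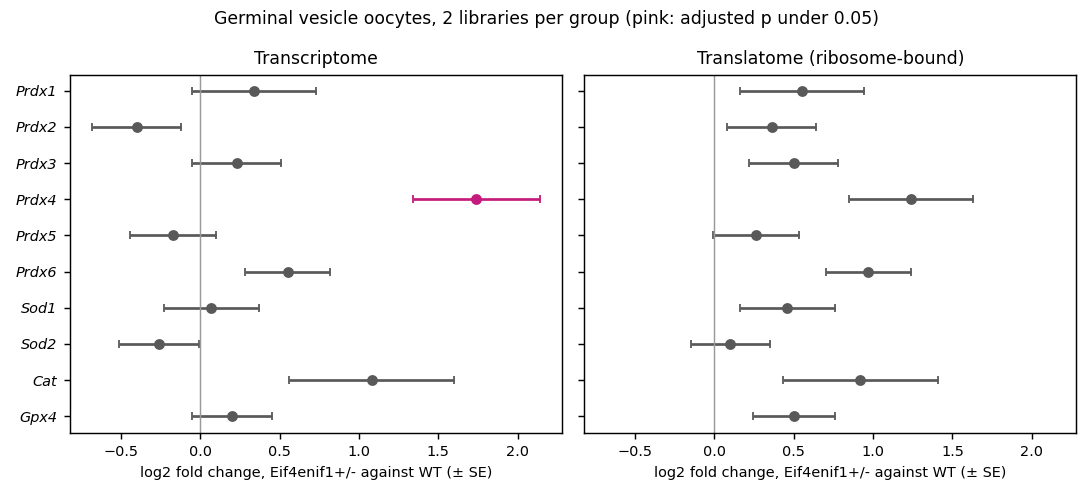
Log2 fold change of each gene in het against WT GV oocytes, with SE bars, for total mRNA on the left and ribosome-bound mRNA on the right. Prdx4 in total mRNA (1.74) is the only value past the threshold, and all 10 values in ribosome-bound mRNA lie above 0.

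Granulosa cells surround the oocyte, and their RNA could enter these libraries. All 23 granulosa markers had counts in each oocyte group, and their summed level was 488 to 589 CPM in the het transcriptome against 248 to 378 CPM in WT. In the translatome it was 869 to 1249 CPM in het and 329 to 551 CPM in WT libraries. Of these 23 markers 6 were called higher in the het transcriptome and 5 in the het translatome, and none lower. Over all genes 1.41% and 2.61% were called higher. Fitted levels were higher in het oocytes for 16 of the 23 markers in the transcriptome and for 20 in the translatome. The summed level of 9 oviduct markers was also higher: 16.1 to 25.8 CPM in the het and 4.26 to 6.31 CPM in the WT transcriptome. In the translatome it was 30.9 to 48.4 against 7.93 to 14.4 CPM. Of 5 tested, 4 had higher fitted levels in the het transcriptome and 3 in the het translatome. Krt8 was called in both fractions (log2 2.37 and 2.46) and Krt18 in the translatome (log2 2.97). The part of such RNA in the differences of Prdx4, Prdx6, Gclc, Gclm, Gpx1 and Gpx7 was not tested. In bulk samples, fewer cells of a type and less RNA per cell cannot be told apart.

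Genes that recharge, assist or surround these enzymes moved in small numbers in het oocytes. Over all genes, 1.41% were called higher and 1.14% lower in the transcriptome, and 2.61% and 2.01% in the translatome. Among 12 genes of glutathione synthesis and the NRF2 response, Gclc, the catalytic subunit of the first step of glutathione synthesis, rose in both fractions: from 1.26 and 0.722 to 6.25 and 5.33 CPM in the transcriptome (log2 2.52, adjusted p = 0.0193) and from 3.63 and 1.15 to 21.4 and 20.9 CPM in the translatome (log2 3.08, adjusted p = 0.00531). Its regulatory subunit Gclm rose in the transcriptome, to 71.8 and 57.2 CPM from WT values of 34 and 19.1 CPM. No other gene of that list was called in either fraction. Of 18 thioredoxin and repair genes, Srxn1, the sulfiredoxin that restores over-oxidized peroxiredoxins, had 0 counts in both WT transcriptome libraries and 14 counts in the het ones. That is at least 16.4-fold higher when the WT group is set to a floor of 3 counts (adjusted p = 0.0189). In the translatome Srxn1 rose from 0.216 and 0.192 to 1.45 and 2.52 CPM, and Txnrd1, the thioredoxin reductase of the cytosol, fell from 118 and 129 to 59.4 and 44.2 CPM (log2 -1.25, adjusted p = 0.0185). Of the 10 other glutathione peroxidases and dismutases, 6 were tested. Gpx7, a peroxidase of the endoplasmic reticulum, rose in both fractions (log2 1.65 and 1.82), and Gpx1 rose in the translatome (log2 1.04). The remaining lists had 1 call each at most: Eefsec, the elongation factor for selenocysteine, fell in the transcriptome (log2 -1.28), as did Pex14 of the peroxisomal import machinery (log2 -1.55), and no gene of the oxidant sources or of lipid peroxide defence was called. Median log2 differences were 0.45 for glutathione and NRF2 genes, 0.25 for thioredoxin and repair genes and 0.88 for the other peroxidases in the translatome, where all genes gave 0.04. In the transcriptome the same lists gave 0.21, -0.08 and 0.65, with -0.04 over all genes. Medians of the remaining lists ran from -0.01 (oxidant sources) to 0.08 (peroxisome) in the translatome. In the transcriptome they ran from -0.44 (selenoprotein synthesis) to 0.09 (lipid peroxide defence). Over the fits that left out 1 library, the glutathione list had 1 call in the translatome in each fit and 0 to 3 in the transcriptome. Each other list with a call had 0 calls in at least 1 such fit.

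From the 1-cell to the 2-cell stage, 3 of the 10 genes rose in WT embryos, Prdx4, Gpx4 and Prdx6, and none was called lower. Of all 23656 genes 46.4% were called, 28.5% higher and 17.9% lower, so 3 of 10 lies near the share over all genes. Prdx4 had 0 counts in each of the 3 WT 1-cell libraries and 12955, 6835 and 11898 counts in the WT 2-cell libraries (411, 301 and 280 CPM). Summed over the group this was at least 5421-fold higher, against a floor of 3 counts at 1 cell (edgeR adjusted p = 1.06e-04). Floors and intervals cover counting error only, because amplified reads without molecular identifiers are not independent molecules. A count of 0 over these 3 libraries allows a level of up to 0.0604 CPM. Oocyte libraries, scaled separately, had 5.5 to 30.4 CPM.

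Gpx4 read 5.96, 3.66 and 2.47 CPM in WT 1-cell and 292, 312 and 254 CPM in WT 2-cell libraries. Every 2-cell value was far above every 1-cell value, with a 71-fold difference (log2 6.15, SE 1.26, adjusted p = 0.00147). Prdx6 rose from 13.2, 12.9 and 7.66 CPM to 157, 186 and 146 CPM, also without overlap (log2 3.86, SE 0.64, adjusted p = 3.99e-04). These 3 calls held in all 6 fits that left out 1 library and in all 7 other settings. Oocytes had carried more Gpx4 than 1-cell embryos on their own scale, with 121 and 143 CPM in the WT transcriptome, and Prdx6 had 15.6 and 20.6 CPM there. Gpx4-ps2, the near-identical pseudogene, went from 0.874 to 1.92 CPM at 1 cell to 74.6 to 124 CPM at 2 cells.

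Prdx1 went the other way without passing the threshold: 1954, 1711 and 1610 CPM in WT 1-cell libraries and 463, 399 and 366 CPM in WT 2-cell libraries. The groups lay wide apart (log2 -2.10, SE 0.91, adjusted p = 0.0686), with the spread shared over all 5 groups. Among WT 1-cell and 2-cell libraries alone the adjusted p was 2.68e-05 (log2 -1.98), and on library totals 0.0318 (log2 -1.80). Prdx3 had 6.44, 3.53 and 4.21 CPM at 1 cell and 26.8, 20 and 21.1 CPM at 2 cells (log2 2.26, SE 1.25, adjusted p = 0.145). It too was called with WT libraries alone (log2 2.38, adjusted p = 4.38e-04). Groups did not overlap for 4 genes higher and 2 lower, where 40.6% and 28.9% of all genes did so. Prdx2 (615, 495 and 389 CPM against 400, 395 and 741 CPM), Sod1, Sod2 and Cat overlapped between the stages. Prdx5 ran from 138 to 150 CPM at 1 cell and from 107 to 133 CPM at 2 cells, a small gap with no call (adjusted p = 0.671). The median log2 difference of the 10 genes was 0.23, against 0.59 over all genes, also with Prdx4 entered at its bound.

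In het embryos the same 3 symbols were called higher at 2 cells, with a background of 22.8% higher and 13.9% lower. Prdx4 went from 0.354, 0.358 and 1.84 CPM to 216, 221 and 259 CPM (log2 8.03, SE 1.21, edgeR adjusted p = 5.72e-04). Gpx4 rose from 6.19, 8.42 and 8.62 CPM to 159, 293 and 309 CPM (log2 5.03, SE 1.19, adjusted p = 0.00513). Prdx6 rose from 20, 11.2 and 13.8 CPM to 157, 109 and 98.7 CPM (log2 3.02, SE 0.62, adjusted p = 0.00226). These 3 genes alone of the 10 had groups that did not overlap, all higher, where 32.2% of genes did so in that direction. Without the outlying het 1-cell libraries 1 and 3, Prdx4 stayed called, while Gpx4 (log2 4.78, adjusted p = 0.151) and Prdx6 (log2 3.30, adjusted p = 0.0618) did not, with 1 het 1-cell library left. The WT and het stage differences were compared as an interaction. By edgeR and by DESeq2 0 of the 10 genes were called, with a background of 0.00423%, and only Prdx4 had an unadjusted p under 0.05 (adjusted p = 1).

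**Figure D3:**
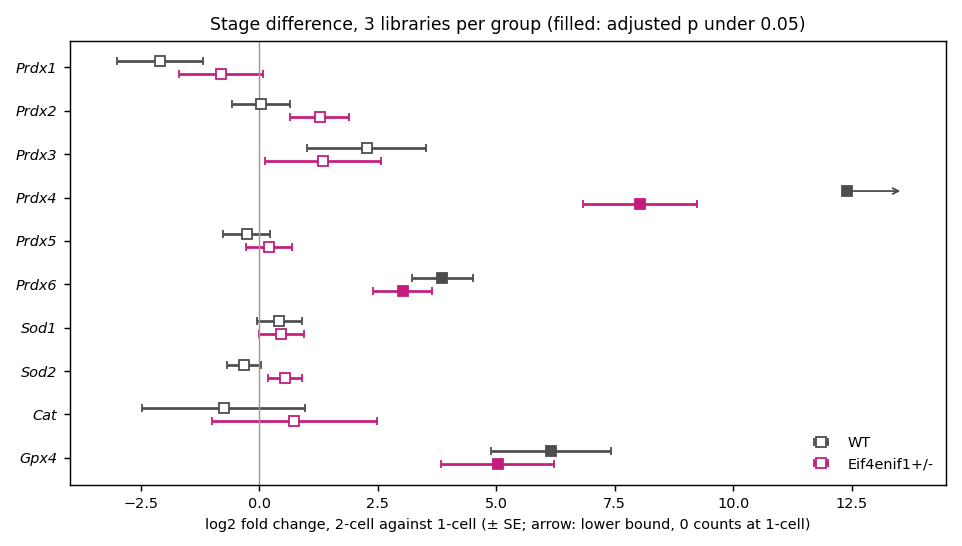
Log2 fold change of each gene from 1-cell to 2-cell embryos with SE bars, WT in grey and het in pink. Filled marks passed the threshold: Prdx4, Prdx6 and Gpx4 in both genotypes. The arrow marks the lower bound for Prdx4 in WT embryos, 5421-fold.

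Between het and WT embryos of 1 stage none of the 10 genes was called by edgeR. At the 1-cell stage no gene at all was called (background 0%, 889 genes with an unadjusted p under 0.05, 80 called by DESeq2). Prdx4 and Sod2 had an unadjusted p under 0.05. Prdx4 had 37 counts in the 3 het libraries, 29 of them in library 3, and 0 in WT, a level at least 16-fold higher (edgeR adjusted p = 1, DESeq2 adjusted p = 0.0214). Prdx1 read 158, 2011 and 123 CPM and Prdx2 137, 571 and 110 CPM in het 1-cell libraries 1 to 3. Only library 2 lay in or near the WT range of 1610 to 1954 and 389 to 615 CPM. Libraries 1 and 3 are those with the flat count distribution, and without library 2 Prdx1 was called lower in het embryos (log2 -3.65, adjusted p = 0.0155). For Sod2 the het libraries had 72, 128 and 58.5 CPM and the WT libraries 136, 181 and 128 CPM, apart by a narrow margin. Groups did not overlap for 2 genes higher and 1 lower in het embryos, with a background of 10.1% and 6.08%.

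At the 2-cell stage 0 of the 10 genes had an unadjusted p under 0.05, and DESeq2 called none. Over all genes edgeR called 1 (0.00423%), 1318 had an unadjusted p under 0.05 and DESeq2 called 143. Prdx4 was 216 to 259 CPM in het and 280 to 411 CPM in WT libraries (log2 -0.51, SE 0.88). Sod1 was 57.2 to 105 CPM in het and 110 to 135 CPM in WT libraries (log2 -0.49, SE 0.47). These 2 were the genes without overlap, both lower in het embryos, where 7.24% of genes had that pattern. Prdx3 had 3 CPM in het 2-cell library 1 and 22.1 and 26 CPM in the other two, next to 20 to 26.8 CPM in WT. That library also correlated less with the WT 2-cell mean (0.826) than the other two (0.931 and 0.963).

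**Figure D4:**
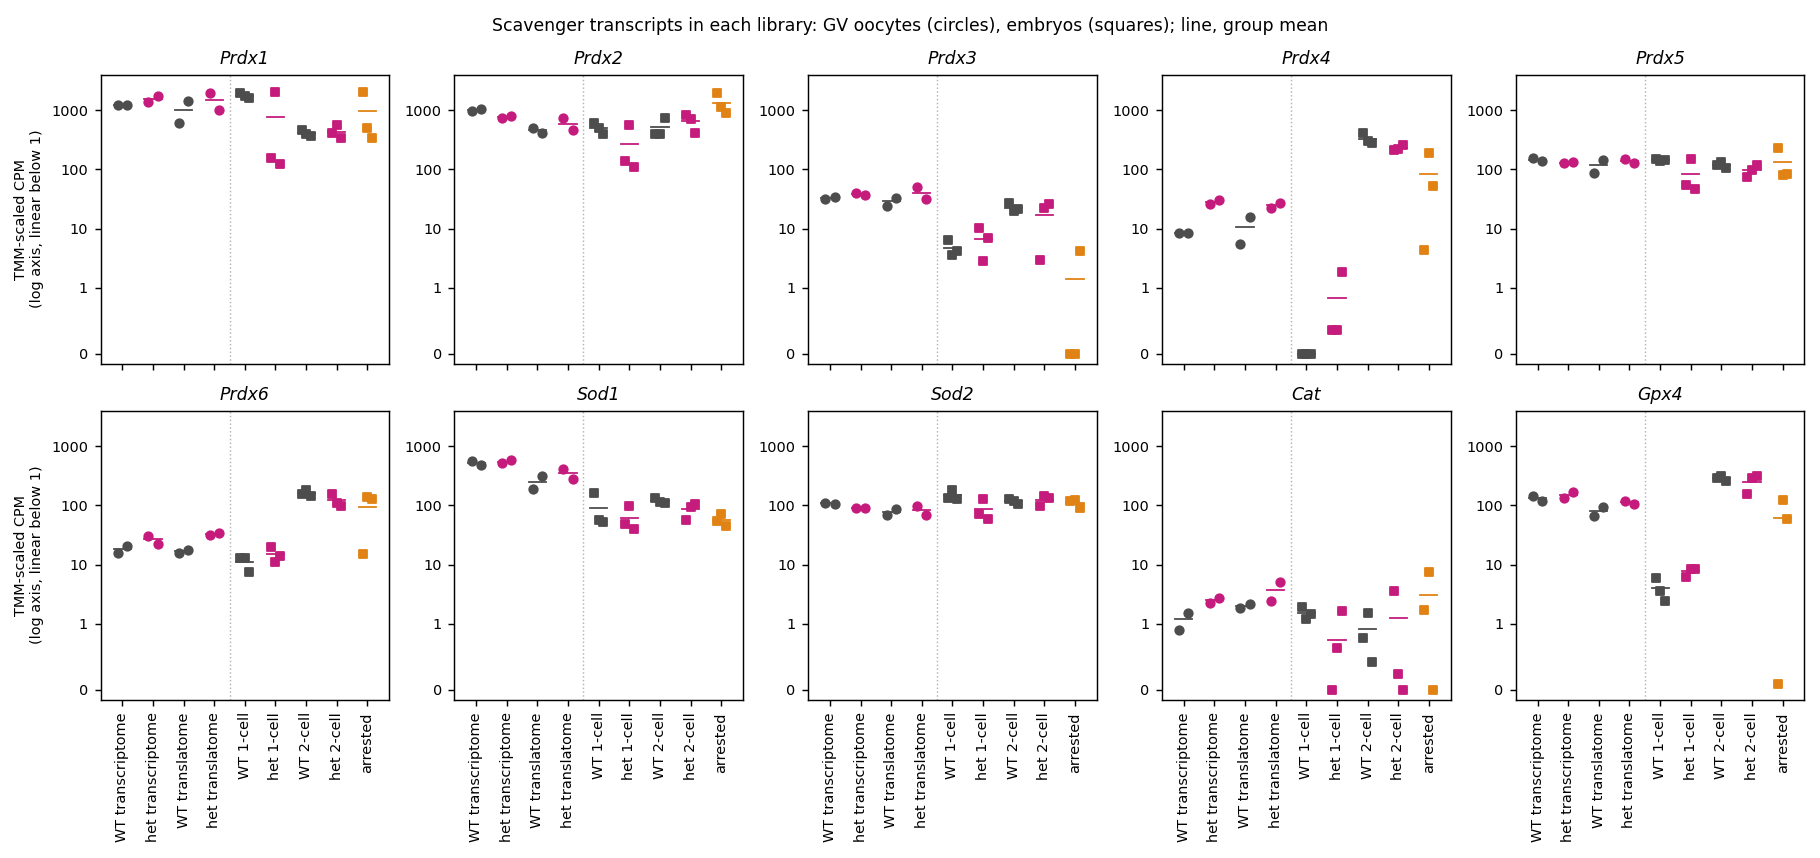
TMM-scaled CPM of each gene in every library (log axis, linear below 1), with GV oocytes as circles, embryos as squares and a line at each group mean. Grey is WT, pink is het, orange is arrested het embryos. Prdx4 and Gpx4 are at their lowest in 1-cell embryos and in arrested library 1, and the 2 low points of Prdx1 in het 1-cell embryos are libraries 1 and 3.

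Arrested embryos were compared with het and WT embryos of both stages, and these 4 comparisons share the 3 arrested libraries. Prdx4 had 4.33, 192 and 51.5 CPM in arrested libraries 1, 2 and 3. All 3 values lay above every 1-cell library and below every 2-cell library. Against het 1-cell embryos Prdx4 was called higher (log2 6.54, SE 1.14, edgeR adjusted p = 0.00419), and against WT 1-cell embryos it was at least 1713-fold higher (adjusted p = 0.00107). The first call was lost without het 1-cell libraries 1 and 3 (log2 7.53, adjusted p = 0.11). Against het and WT 2-cell embryos its fitted level was 2.8-fold (adjusted p = 0.306) and 3.99-fold lower (adjusted p = 0.136). Without arrested library 2 both were called, at log2 differences of -3.24 (adjusted p = 0.0326) and -3.75 (adjusted p = 0.0133).

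Gpx4 had 0.0942, 123 and 58.9 CPM in the arrested libraries, so library 1, with 1 count, lay below the 1-cell range and the others between the stages. It was called higher than in WT 1-cell embryos (log2 3.92, SE 1.13, adjusted p = 0.0264) but by edgeR not than in het 1-cell embryos (log2 2.97, SE 1.08, adjusted p = 0.0779). DESeq2 (log2 3.01, adjusted p = 0.024) and edgeR without the filter (log2 3.04, adjusted p = 0.0233) called that difference too. The first call was lost without any WT 1-cell library (log2 3.65 to 4.30, adjusted p 0.0648 to 0.108) and without arrested library 2 (log2 2.79, adjusted p = 0.101). Without arrested library 1 Gpx4 was called higher than in het 1-cell embryos (log2 3.57, adjusted p = 9.29e-05) and lower than in WT 2-cell embryos (log2 -1.66, adjusted p = 0.0365). Prdx6 read 14.9, 138 and 131 CPM, with library 1 inside the het 1-cell range and libraries 2 and 3 inside the het 2-cell range. It was called higher than in het (log2 2.66, SE 0.61, adjusted p = 0.0118) and WT 1-cell embryos (log2 3.07, SE 0.62, adjusted p = 0.00506). The call against het embryos was lost without het 1-cell library 2 (log2 2.49, adjusted p = 0.0508), library 3 (log2 2.61, adjusted p = 0.0551) or both libraries 1 and 3 (log2 2.79, adjusted p = 0.24). It was also lost on library totals, with a smaller difference (log2 1.69, adjusted p = 0.0939).

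Prdx2 stood higher in arrested embryos than in any other embryo group, with 1934, 1119 and 900 CPM. No other embryo library exceeded 840 CPM, so the groups were apart in all 4 comparisons. It was called against het 1-cell embryos alone (log2 2.27, SE 0.63, edgeR adjusted p = 0.0283). That call was lost without het 1-cell library 1 (log2 1.90, adjusted p = 0.13) or 3 (log2 1.85, adjusted p = 0.119), and without arrested library 1 (log2 1.84, adjusted p = 0.0564) or 2 (log2 2.34, adjusted p = 0.0509). Without both outlying het libraries it fell to 1.04 (adjusted p = 0.571). Against WT 1-cell embryos Prdx2 gave 1.40 (adjusted p = 0.116), against het 2-cell embryos 1.01 (adjusted p = 0.306) and against WT 2-cell embryos 1.36 (adjusted p = 0.13).

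Prdx3 was low in the arrested embryos, with 0 counts in libraries 1 and 2 and 54 counts in library 3 (4.17 CPM), against 20 to 26.8 CPM in WT 2-cell libraries. The difference of -4.03 on the log2 scale (SE 1.36) just missed the threshold (edgeR adjusted p = 0.0508), and DESeq2 called it (adjusted p = 0.00339). It was also called without arrested library 2 (log2 -3.61, adjusted p = 0.0432) or library 3 (adjusted p = 0.00231). Untreated 1-cell embryos were low in Prdx3 as well, at 2.87 to 10.3 CPM in het and 3.53 to 6.44 CPM in WT libraries. The arrested libraries overlapped them (edgeR adjusted p = 0.233 and 0.333) and also the het 2-cell libraries (adjusted p = 0.0968). Without arrested library 3 these comparisons were called too. Prdx1 had 2048, 510 and 335 CPM, so library 1 stood above every 1-cell library and the other two near the 2-cell level. Prdx5 showed the same split, with 233, 81.7 and 84.1 CPM. Sod1 had 53.7, 72.4 and 44.9 CPM and Sod2 121, 123 and 91.6 CPM in the arrested embryos. Cat ran from 0 to 7.52 CPM there and reached at most 5.13 CPM in any other library.

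By counts, 3 of the 10 genes were called higher in arrested embryos than in het 1-cell embryos (background 9.97%) and 3 than in WT 1-cell embryos (14.1%). None was lower, where 3.91% and 5.44% of genes were. Against het 1-cell embryos groups did not overlap for 2 genes, Prdx2 and Prdx4, both higher, with a background of 9.42% higher and 16.0% lower. Against WT 1-cell embryos 3 genes were apart as higher and 1 as lower (background 11% and 15.3%). Against het 2-cell embryos the counts were 1 higher and 2 lower (9.78% and 15.6%), and against WT 2-cell embryos 1 higher, Prdx2, and 5 lower, Prdx3, Prdx4, Prdx6, Sod1 and Gpx4 (15.3% and 24.7%). None was called by edgeR against het or WT 2-cell embryos (background 8.4% and 18.8%), where 1 and 5 had an unadjusted p under 0.05 and DESeq2 called 1 in each, Prdx3. Fitted with the compared groups alone, no gene of any kind was called against het 1-cell, het 2-cell or WT 2-cell embryos. Against WT 1-cell embryos that fit called Prdx4 alone of the 10.

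The related lists changed in both directions over the stage step in WT embryos. The share over all genes was 28.5% called higher and 17.9% lower, which is the measure for each count here. Of 18 thioredoxin and repair genes, 7 rose and 4 fell. Glrx, a glutaredoxin, Txnip, the thioredoxin inhibitor, and Txnrd1 fell (log2 -5.58, -4.24 and -2.91), and Glrx3 rose (log2 4.92). Of 6 tested glutathione peroxidases and dismutases 4 rose, among them Gpx1 (from 16.7, 24.2 and 37.4 to 441, 429 and 366 CPM) and Ccs, the copper chaperone of Sod1 (log2 6.02), and Gpx6 fell (log2 -4.66). Among 12 glutathione and NRF2 genes 3 rose and 4 fell. Nqo1 and Slc7a11 fell (log2 -2.06 and -4.70), and Hmox1, the heme oxygenase, rose at least 92-fold from 0 counts. Selenoprotein synthesis genes split 3 up and 3 down of 8, and peroxisome genes 3 up and 4 down of 17. Of 8 tested oxidant sources 2 rose and 1 fell, and of 8 lipid peroxide defence genes 3 rose and 4 fell. The ferritin chains Fth1 and Ftl1 and the transferrin receptor Tfrc were the 3 that rose (log2 4.12, 4.22 and 5.24). With 1 library left out, the lists' total calls ranged from 10 to 11 (thioredoxin and repair), 4 to 5 (other peroxidases), 4 to 7 (glutathione), 3 to 5 (selenoprotein synthesis), 6 to 8 (peroxisome), 1 to 2 (oxidant sources) and 5 to 6 (lipid peroxide defence). Medians ran from -0.54 for selenoprotein synthesis to 4.62 for the other peroxidases, against 0.59 over all genes. In het embryos, where 22.8% of all genes were called higher and 13.9% lower, the counts up and down were 6 and 6 of the thioredoxin genes, 4 and 1 of the other peroxidases, 2 and 4 of the glutathione genes, 2 and 3 of selenoprotein synthesis, 1 and 4 of the peroxisome, 2 and 0 of the oxidant sources, and 3 and 2 of lipid peroxide defence. Between het and WT embryos of a stage 0 genes of the 7 lists were called by edgeR. In arrested against WT 1-cell embryos, with 14.1% of all genes called higher and 5.44% lower, 9 thioredoxin genes were called, 6 higher and 3 lower, and so were 4 other peroxidases, 2 glutathione genes, 3 selenoprotein synthesis genes, 1 oxidant source and 3 lipid peroxide defence genes, all of these higher, and no peroxisome gene. With 1 library left out these totals ranged from 4 to 10, 1 to 6, 0 to 3, 0 to 5, 1 to 2 and 2 to 4, and from 0 to 2 for the peroxisome.

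Markers of other cells also differed between the stages. The summed level of 10 blood markers was 4.93 to 9.51 CPM in WT 1-cell and 388 to 560 CPM in WT 2-cell libraries, and that of 9 oviduct markers 2.19 to 5.32 and 285 to 376 CPM. Of the 10 blood markers 6 had counts in WT 2-cell libraries and 4 were tested. Fitted levels were higher for 3 of these 4, and Hba-a1, Hba-a2 and Lyz2 were called higher. Alas2, also on the blood list, had 4 counts in WT 1-cell and 0 in WT 2-cell libraries. Of 6 oviduct markers tested 5 were called higher, among them Epcam, Krt18, Cd24a and Krt8. No marker of either list was called lower. Over all genes 28.5% were called higher and 17.9% lower. In arrested embryos blood markers ran from 22.4 to 407 CPM and oviduct markers from 12.8 to 296 CPM. Granulosa markers summed to 163 to 189 CPM at 1 cell and 130 to 143 CPM at 2 cells in WT embryos. The part of such RNA in the rise of Prdx4, Gpx4 and Prdx6 was not tested.

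Across the 15 embryo libraries, genes with profiles most like those of the 3 scavengers called most often were sought by Pearson r of log2(CPM + 1) among 7068 genes averaging 10 CPM or more. Nearest to Prdx4 were Mkrn1 (r = 0.996), Uspl1 (0.995) and Tomm5 (0.994). Gpx4 lay nearest to Twnk (0.994), Timm50 (0.992) and Rpa2 (0.992). Prdx6 lay nearest to Tmsb15b1 (0.985), Cd24a (0.984), one of the oviduct markers, and Hba-a2 (0.983), one of the blood markers. The libraries fall into stages, so these values mainly compare stage levels, and they are given as a description.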

How the data were processed

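The authors deposited gene-level read counts of 8 oocyte and 15 embryo libraries in 2 tables. Per the submitters' processing notes, the tools were HISAT2 2.1.0, featureCounts 1.6.5 and Trim Galore 0.6.4, with build mm10. Annotation release, strand setting and handling of multi-mapped or duplicate reads: not given in the sources used here. No molecular identifiers are named, so amplification copies may be counted. Raw counts were tested with edgeR 4.0.16 (R 4.3.3) in a quasi-likelihood fit per table with TMM scaling, a term per group and the default filter on low counts, which left 22409 and 23656 genes. Benjamini-Hochberg adjustment ran over all genes tested, and a gene was called at an adjusted p under 0.05. SE is the log2 fold change divided by the root of F. A group at 0 counts was given a floor of 3 counts over the group. Gene lengths came from GENCODE vM21 exons, merged over all transcripts of a gene.

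The 10 genes and the lists were chosen with earlier results of these data known. By the naming rule a list's called members were ranked by p in each comparison and at most 4 named, and Gpx4-ps2 and the other copies are named as a check. Alternatives were RLE scaling, library totals, no filter, DESeq2 1.42.0, the compared groups alone, replicate blocks, each library left out and, chosen after the data were seen, summed copies and crossed numbers. The fit was tested on simulated data. Both oocyte libraries of a specimen share its number; over 9075 genes their deviations from group means correlated at 0.265 (het) and 0.0492 (WT). Summing copies changed no call of the 10 genes.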

Additional observations from a re-analysis of the deposited data

How the results depend on the processing

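Of 1868 log2 differences of the 10 genes under alternatives, 1805 stayed on their side of the threshold, 30 newly passed it and 33 no longer passed. Of these 1868, 91 changed sign, among them 0 that were called in either fit. Counts of the 10 genes called moved as follows. Het against WT, GV translatome (0) gave 2 without the filter and 2 with DESeq2. Arrested against het 1-cell (3) gave 4 without the filter, 4 with DESeq2 and 2 on library totals, where WT 2-cell against 1-cell (3) gave 4. Translatome against transcriptome in WT (2) gave 1 with the compared groups alone. Arrested against WT 2-cell (0) gave 1 with RLE scaling, 1 without the filter and 1 with DESeq2, and arrested against het 2-cell (0) gave 1 without the filter and 1 with DESeq2. Het against WT 1-cell (0) gave 1 with DESeq2. With the compared groups alone, WT 2-cell against 1-cell (3) gave 5, arrested against het 1-cell (3) gave 0 and arrested against WT 1-cell (3) gave 1. Without het 1-cell libraries 1 and 3, het 2-cell against 1-cell (3) gave 1 and arrested against het 1-cell gave 0. With 1 library left out, the counts ranged from 0 to 1 (GV translatome; WT translatome against transcriptome; het against WT 1-cell; arrested against het 2-cell), 0 to 0 (GV transcriptome), 3 to 4 (het stage), 3 to 3 (WT stage), 1 to 4 (arrested against het 1-cell), 2 to 4 (against WT 1-cell) and 0 to 2 (against WT 2-cell).

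Het and WT oocytes share replicate numbers only as numbers, with deviations correlated at -0.346 (translatome) and -0.45 (transcriptome). With the number as a block 670 genes were called in the translatome, against 1034 without it, and with the pairing crossed 1611 there and 1169 in the transcriptome. The crossed block called 1 of the 10 genes in the translatome, Prdx6 (0.98, adjusted p = 0.0335). Embryo numbers did not pair the libraries (correlations -0.454 to 0.257 over 8835 genes). With that block, arrested against WT 2-cell gave 1 of the 10 genes, Prdx3 (-4.86, adjusted p = 0.0493), and against WT 1-cell 2 (3), with Gpx4 lost (3.55, adjusted p = 0.0777), while all genes called were 1909 against het 1-cell, 3037 against WT 1-cell and 0 for stage by genotype. The specimen block changed no call of the 10 genes and gave 7 genes in all for the interaction.

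Over all genes, edgeR called 1034 (GV translatome), 572 (GV transcriptome), 3 (interaction) and 1814 (fractions in het). Without the filter these were 2113, 1554, 108 and 2883, and with DESeq2 1839, 1401, 108 and 2731. With the compared groups alone, the fractions gave 1570 in WT (3269) and 3033 in het. In embryos DESeq2 gave 80 (0) and 143 (1) for genotype at 1 and 2 cells, 79 (1) for stage by genotype, and 5934 (3283), 5029 (1986), 7188 (4624) and 7226 (4455) for arrested against het 1-cell, het 2-cell, WT 1-cell and WT 2-cell. With the compared groups alone these 4 gave 0, 0, 579 and 0, stage by genotype 3 and genotype at 2 cells 0; without the filter the last gave 2. Library totals gave 835 against het 2-cell, 2778 against WT 2-cell and 0 for stage by genotype. Without het 1-cell libraries 1 and 3, het 2-cell against 1-cell gave 2017 (8693) and arrested against het 1-cell 104. On library totals the median of all genes moved from 0.11 to 1.11 (genotype at 1 cell), 0.59 to 0.89 (WT stage), 0.36 to -0.50 (het stage), -0.09 to -1.20 (stage by genotype), 0.28 to -0.72 (arrested against het 1-cell) and 0.01 to -0.30 (against WT 2-cell). The share of calls that were higher went from 62.1% to 40.8% in the het stage comparison, 71.8% to 34.1% against het 1-cell, 53.6% to 37.3% against WT 2-cell, and 55.4% to 75.1% in the GV transcriptome (65.7% with RLE). Depth limits low genes most, such as Cat and 1-cell Prdx4.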
